A study of Mus musculus with 8 samples.

Results

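The genes described are 30 that mark the neurons and glial cells of the gut's own nervous system, chosen by name: probes whose gene name in the array files equals a listed symbol, with 1 probe per gene, the one with the highest mean over all arrays. Of the 30 symbols, 29 were found on the array, against 36161 gene names in all, and all 29 were among the 25360 genes tested. The exception was Map2, which the array carries under the older symbol Mtap2. They were measured in whole small intestine of E18.5 mouse embryos (shortly before birth) on 8 Agilent single-colour arrays, 4 from controls and 4 from embryos labelled Rfx6 fl/fl Ngn3-cre. Rfx6, a transcription factor, acts in the endocrine cells of gut and pancreas. Mutant embryos had a pair of floxed Rfx6 alleles, which Cre recombinase can cut out, and a Cre controlled by Ngn3, which marks endocrine progenitors, so the deletion is directed at cells that had expressed Ngn3 (the endocrine lineage). By the labels, control replicates 1, 3 and 4 carried 1 floxed Rfx6 allele and control replicate 2 carried 2. No label gives Cre for a control, so Cre itself and the loss of Rfx6 cannot be told apart. Each array is labelled as a separate sample, and nothing in the labels ties samples to litters, so the p-values measure the spread between these samples.

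The enteric nervous system arises from neural crest cells that migrate along the fetal gut and settle as ganglia between and beneath its muscle layers. Migration and survival depend on the receptor tyrosine kinase Ret with its co-receptor Gfra1, which bind GDNF from the gut wall, and on the endothelin receptor Ednrb. Phox2a, Hand2 and Sox10 are transcription factors of this lineage, and the mature cells divide into cholinergic neurons, nitrergic neurons and glia. In bulk tissue, fewer cells of a type and less RNA per cell cannot be told apart.

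The members were read through probes of 60 bases. For some members, stretches of 30 bases are shown 5′ to 3′ where more than 1 probe, or a feature of the probe, bears on the values given later. Slc5a7 and Elavl4 have 2 tested probes each, shown in lower case throughout. Ednrb and Ache also have 2 tested probes and Ncam1 has 3, and their sequences are not shown. In the Chat probe the capitals mark a run of GAAA repeats, and in the probes of Slc18a3, Stmn2 and Tubb3 they mark the motif AATAAA, the usual signal for polyadenylation. Positions are those of the whole probe on mm9, minus strand for the first 6 and plus strand for the last 2.
Slc5a7 probe 1, bases 1 to 30, chr17:54413269-54413328: gtgaaatgatatgtcaacaagctatcagat
Slc5a7 probe 2, bases 1 to 30, chr17:54413708-54413767: gcaaagcaggttctttccatatacaatata
Elavl4 probe 1, bases 1 to 30, chr4:109877455-109877514: gggaagaagcatattactgtgtccttctgt
Elavl4 probe 2, bases 1 to 30, chr4:109878558-109878617: ctttaccaccttccttgaaggtgggtcttt
Chat probe, bases 31 to 60, chr14:33221421-33221480: gctattcaGAAAGAAAGAAAGAAAGAAAGA
Slc18a3 probe, bases 17 to 46, chr14:33275627-33275686: accctggtgcctccggcctgaattAATAAA
Stmn2 probe, bases 11 to 40, chr3:8561545-8561604: tgtcattgtgagcaagctgtgatgAATAAA
Tubb3 probe, bases 11 to 40, chr8:125945850-125945909: atattcggggggaggggtatacttAATAAA
AATAAA, searched on the probe strand, was found in 4 of the 29 member probes (13.8%; the fourth is Sox10) and in 10.1% of the 55681 distinct probes of the array. At least 3 GAAA repeats in a row were found in the Chat probe alone among the members, and in 13 of the 55681 probes (0.0233%).

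Spot intensity at the 75th percentile ranged from 788 to 1027, and between 59.7% and 69.9% of probes on an array were well above background. Across genes, the mean correlation with the remaining arrays was 0.978 for mutant replicate 1 and 0.990 to 0.991 for each of the others. The Rfx6 probe did not separate the groups: its log2 level was -3.32, -3.20, -3.48 and -2.93 in control replicates 1 to 4 and -5.52, -3.37, -3.02 and -3.02 in mutant replicates 1 to 4 (limma adjusted p = 0.824). Whether that probe lies in the deleted part is not given in the labels, so it does not check them. Of 17 intestinal endocrine genes listed beside the members, 10 were lower in the mutants at the threshold, against 14 of all 25360 genes tested. Of those 10, Isl1 was well above background on 4 of the 8 arrays and Gip on 5. Both were higher in the controls, so the filter favoured them through that group and their direction is not read as support. Sst, the gene of the hormone somatostatin, was well above background on all 8 arrays. It stood at -4.52 log2 units in the mutants relative to the controls (SE 0.13, adjusted p from limma 3.41e-06).

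Among the enteric neuron and glia genes, 2 arrays stood apart, of which mutant replicate 1 did so over all genes too. Control replicate 3 was the lowest of the 4 controls for 24 of the 29 members (82.8%), against 26.4% of all genes tested, and the lowest of all 8 arrays for 14 (48.3%), against 11.8% of all genes. Its median gap to the mean of the other controls was -0.70 log2 units over the members and 0.0096 over all genes. Mutant replicate 1 was the highest of the 8 arrays for 14 members (48.3%) and the lowest for 5 (17.2%). Over all genes it was the highest array for 45.6% and the lowest for 21.3%. Its place at either end was thus not particular to the members. Its gap to the other mutants was 0.40 in the median over the members and 0.19 over all genes, with members ranging from -1.62 to 0.65. The median SD of a member was 0.367 among the 4 controls and 0.151 without control replicate 3, while over all genes it was 0.135 and 0.119. Among the mutants it was 0.259, and 0.0838 without mutant replicate 1, while over all genes it was 0.218 and 0.125, so that drop was also seen over the whole array. Levels below are log2 intensity relative to the 75th percentile of the same array, so a gene at 0 is as bright as that percentile. Every difference is mutant minus control on that log2 scale.

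**Figure D1:**
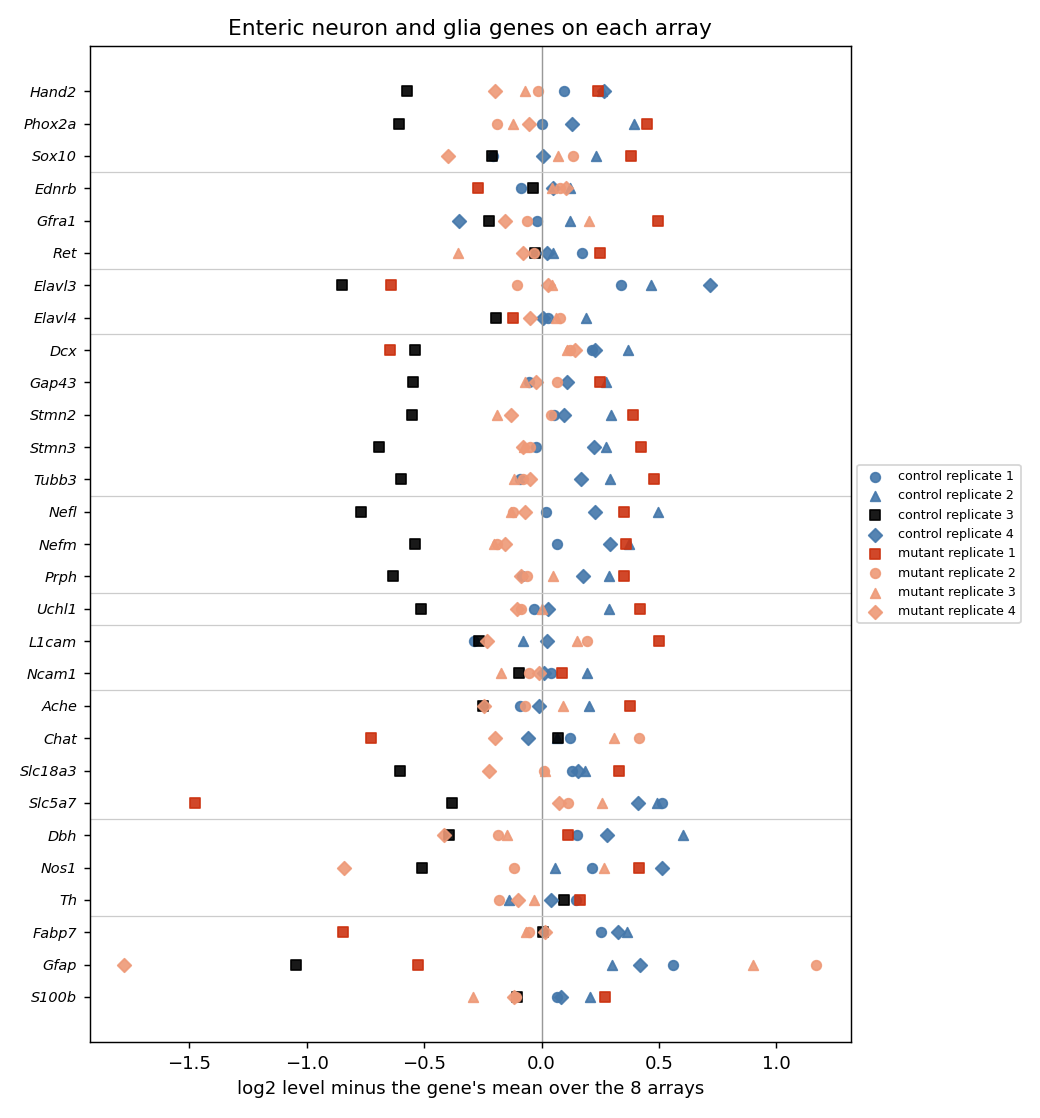
Each row is 1 of the 29 genes, grouped by role, and each point is 1 array. The x axis is the log2 level on that array minus the gene's mean over the 8 arrays. Control replicate 3 (black squares) lies below the other 3 controls for 24 genes, and mutant replicate 1 (red squares) lies at either end of many rows.

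None of the 29 genes differed between the groups at a limma adjusted p of 0.05, and their adjusted p-values ran from 0.821 to 0.990. Over all genes, 15 of 25360 passed (0.0591%). At an unadjusted p under 0.05, 1 member passed, the glial gene Fabp7, which was lower in the mutants, against 5.33% of all genes. The controls and mutants did not overlap for 0 of the 29 members, against 4.66% of all genes. The mutant mean was higher for 13 members and lower for 16, and the median difference was -0.022, against 0.030 for all genes. The standard error of a member's difference ran from 0.0993 to 0.653 with a median of 0.199, so the 4 arrays per group leave room for moderate differences. For 26 of the 29 members the 95% interval lay within 1 log2 unit of 0 in both directions, which leaves differences of up to 2-fold unresolved for them.

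Leaving out control replicate 3 and mutant replicate 1 together, a choice made after seeing the data, changed the balance of signs among the members. The mutant mean was then lower for 25 members and higher for 4, with a median difference of -0.22, against -0.0015 for all genes. No member passed the adjusted threshold (lowest limma adjusted p 0.395, Fabp7), and 10 of the 29 had an unadjusted p under 0.05, against 6.91% of all genes. Because the 2 arrays were picked for standing apart in these same members, as a low control and a mostly high mutant, their removal by itself lowers the members' differences and narrows their spread. Nothing is therefore read from that count, from the signs or from the smaller standard errors without them, here or for single genes below. The same holds where the remaining controls and mutants are described as lying apart, and the share of all genes that do so was not computed. Leaving out control replicate 3 alone gave 25 lower and 4 higher with a median of -0.12, and leaving out mutant replicate 1 alone gave 20 lower and 9 higher with a median of -0.036. The direction in which the members lie thus moves with these arrays, and both sets of values are given below where they differ in sign.

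**Figure D2:**
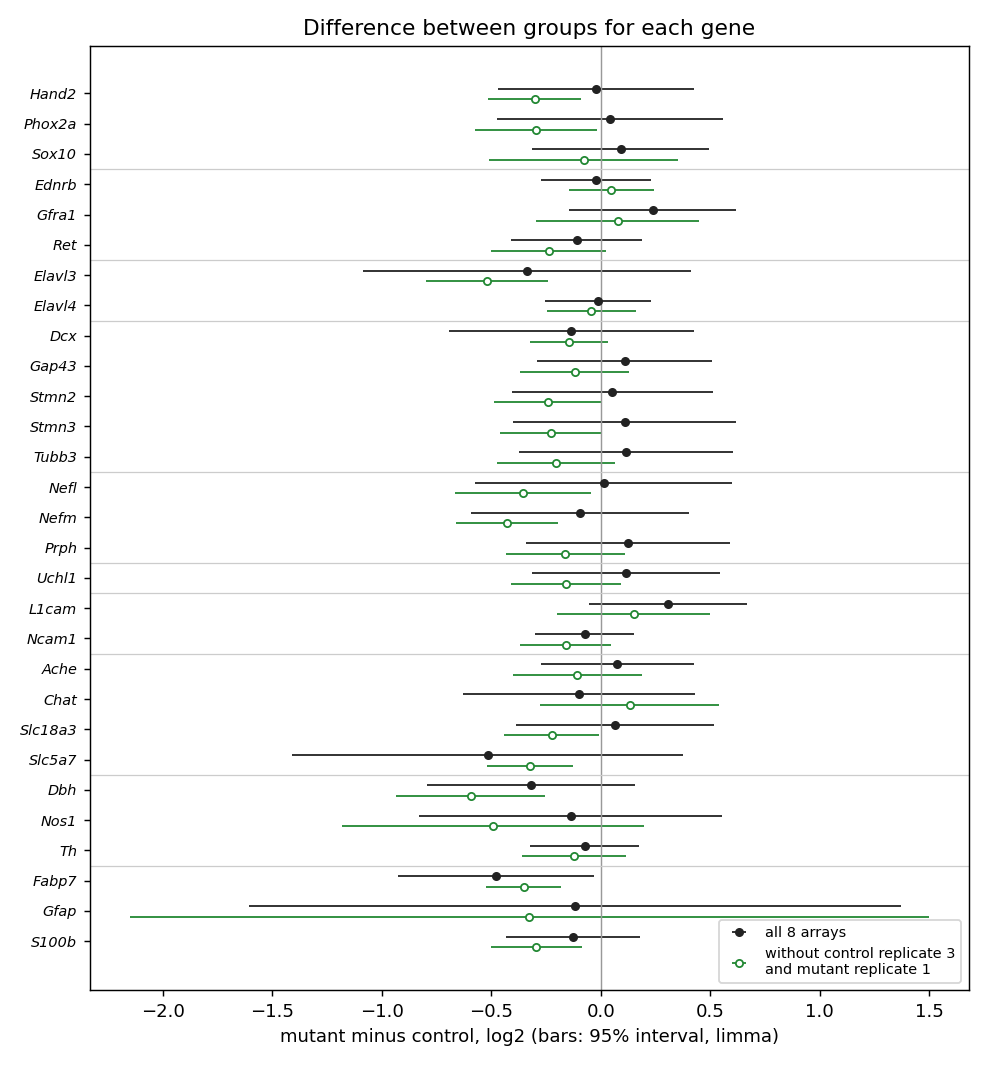
Points are the difference of the group means for each of the 29 genes, mutant minus control in log2 units, with the 95% interval from limma as bars. Filled points use all 8 arrays and open points leave out control replicate 3 and mutant replicate 1. With all arrays 28 of the 29 intervals include 0, and the open points lie below 0 for 25 genes.

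Of the transcription factors, Phox2a is a homeodomain protein of autonomic and enteric neurons (probe at chr7:108971127-108971186). Its level was 0.30, 0.69, -0.31 and 0.43 in control replicates 1 to 4 and 0.75, 0.11, 0.18 and 0.25 in mutant replicates 1 to 4. The lowest value was that of control replicate 3 and the highest that of mutant replicate 1, and the groups overlapped. The difference was 0.04 (SE 0.23, 95% interval -0.47 to 0.56), and -0.30 without those 2 arrays. Hand2, a helix-loop-helix factor needed for enteric neurons to differentiate, stood at -0.29, -0.13, -0.96 and -0.12 in the controls and at -0.15, -0.41, -0.46 and -0.59 in the mutants (chr8:59803220-59803279). Its control replicate 3 was again the lowest array, and its difference was -0.02 (interval -0.47 to 0.42). Sox10, which keeps crest cells multipotent and is later kept in glia, stood at -1.36, -0.92, -1.36 and -1.14 in the controls and at -0.77, -1.02, -1.08 and -1.55 in the mutants (chr15:78985518-78985577). Here control replicates 1 and 3 were level and mutant replicate 4 was the lowest array, with a difference of 0.09 (interval -0.31 to 0.50).

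Phox2a binds sites built around the homeodomain core ATTA, and Dbh, which encodes the enzyme that makes noradrenaline, is a textbook target. The bases from 250 before to 1 before the start of Dbh are shown with the motif AATTA in capitals, from RefSeq on GRCm38.p6, plus strand, chr2:27165257-27165506:
Dbh promoter: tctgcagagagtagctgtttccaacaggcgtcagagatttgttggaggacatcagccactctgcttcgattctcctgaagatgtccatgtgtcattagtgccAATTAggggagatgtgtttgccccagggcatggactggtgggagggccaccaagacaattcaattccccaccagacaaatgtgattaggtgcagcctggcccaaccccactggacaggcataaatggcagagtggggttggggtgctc
The motif begins at position -148 from the start. The shorter core ATTA also occurs outside this motif in the stretch, where it was left in lower case and was not counted. Searched on either strand in windows of 300 bases (250 before to 50 after the start), AATTA was found in 27.0% of 32851 windows of all genes and in 9 of the 28 windows of the members (32.1%). A window was present for 23 members, and 6 of them held it: Dbh, Dcx, Elavl4, Fabp7, Hand2 and Th. A match describes letters only, and the arrays did not measure binding.

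The receptors of ligand signalling varied little with control replicate 3. Ret stood at 0.31, 0.19, 0.11 and 0.16 in the controls and at 0.39, 0.11, -0.21 and 0.06 in the mutants (chr6:118101791-118101850), where control replicate 3 was close to its group and mutant replicate 3 was the lowest array. The difference for Ret was -0.11 (SE 0.13, interval -0.41 to 0.19). Gfra1, the co-receptor that binds GDNF for Ret, stood at -3.93, -3.80, -4.14 and -4.27 in the controls and at -3.42, -3.98, -3.71 and -4.07 in the mutants (chr19:58311604-58311663). Mutant replicate 1 was its highest array, and the difference was 0.24 (interval -0.14 to 0.62). Ednrb stood between 1.39 and 1.60 in the controls and at 1.20, 1.55, 1.52 and 1.58 in the mutants (chr14:104214484-104214543). Its lowest value was that of mutant replicate 1, and the other 3 mutants lay within the control range, with a difference of -0.02 (interval -0.27 to 0.23). Ednrb probe 2 did not share that low value: mutant replicate 1 stood at 1.08 and the controls at 0.96 to 1.07. The difference by probe 2 was 0.11 (interval -0.11 to 0.32). Control replicate 3 lay -0.14 to -0.06 from the other controls for these 3 receptors, a much smaller gap than its median of -0.70 over all members.

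The RNA-binding proteins Elavl3 and Elavl4 are the Hu proteins used to stain enteric neurons. Elavl3 stood at -0.97, -0.84, -2.15 and -0.59 in the controls and at -1.95, -1.41, -1.26 and -1.28 in the mutants (chr9:21822471-21822530). Control replicate 3 was lower than every mutant, while the other 3 controls were higher than every mutant. With all arrays the difference was -0.34 (SE 0.33, interval -1.09 to 0.41, limma adjusted p = 0.822), and without the 2 arrays it was -0.52 (SE 0.12, limma adjusted p = 0.429). Elavl4 stood at 0.60, 0.76, 0.37 and 0.57 in the controls and at 0.45, 0.65, 0.63 and 0.52 in the mutants by its probe 1, a difference of -0.01 (interval -0.25 to 0.23). Its probe 2 gave a gap of -0.96 for control replicate 3 and of -0.94 for mutant replicate 1, against -0.27 and -0.15 for probe 1. The 2 probes of Elavl4 thus differ in how far these arrays fall below their groups.

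Genes of the growing axon showed the pattern of control replicate 3 most evenly. Tubb3, the neuronal beta-tubulin, stood at 0.35, 0.74, -0.15 and 0.62 in the controls and at 0.92, 0.37, 0.33 and 0.39 in the mutants. Stmn2, a tubulin-binding protein of growth cones, stood at 1.82, 2.06, 1.21 and 1.86 in the controls and at 2.15, 1.80, 1.58 and 1.63 in the mutants. Stmn3, its relative, stood at 0.80, 1.10, 0.14 and 1.05 in the controls and at 1.25, 0.78, 0.75 and 0.75 in the mutants (chr2:181041396-181041455). In all 3, control replicate 3 was the lowest array, mutant replicate 1 the highest, and the groups overlapped. Gap43, a growth cone protein of regenerating and developing axons, stood at 1.44, 1.76, 0.94 and 1.60 in the controls and at 1.74, 1.55, 1.42 and 1.46 in the mutants (chr16:42248714-42248773). The differences of these 4 genes were 0.11, 0.05, 0.11 and 0.11, with intervals from -0.40 at the lowest to 0.62 at the highest, and without the 2 arrays they were -0.21, -0.24, -0.23 and -0.12. Dcx, the microtubule protein doublecortin of young neurons, departed from them: it stood at -2.86, -2.71, -3.61 and -2.85 in the controls and at -3.72, -2.95, -2.97 and -2.93 in the mutants (chrX:140290854-140290913). Both arrays that stand apart were low for Dcx, and its difference was -0.13 (interval -0.69 to 0.43). Under the older symbol Mtap2, the dendritic microtubule protein Map2 measured -2.38 ± 0.29 in the controls and -2.59 ± 0.39 in the mutants (SD, n = 4 each), a difference of -0.21 (SE 0.22, interval -0.70 to 0.28, limma adjusted p = 0.824). It too was lowest on mutant replicate 1, at -3.17. It was not matched by the rule and is not counted among the 29.

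The neuronal intermediate filaments moved with the axon genes across the arrays. Prph, peripherin, the filament of peripheral neurons, stood at 0.92, 1.29, 0.37 and 1.18 in the controls and at 1.36, 0.94, 1.05 and 0.92 in the mutants (chr15:98889042-98889101). Nefl, the light neurofilament chain, stood at -0.78, -0.31, -1.57 and -0.58 in the controls and at -0.45, -0.92, -0.93 and -0.87 in the mutants (chr14:68705638-68705698). Nefm, the medium chain, stood at -2.44, -2.13, -3.04 and -2.21 in the controls and at -2.14, -2.69, -2.71 and -2.66 in the mutants (chr14:68738193-68738252). Control replicate 3 was the lowest array for each, and the other 3 controls were higher than mutant replicates 2, 3 and 4 for Nefl and Nefm. The differences were 0.12, 0.01 and -0.09, and without the 2 arrays -0.16, -0.35 and -0.43 (SE 0.11, 0.13 and 0.097). Uchl1, the ubiquitin hydrolase also known as PGP9.5 and used to stain enteric nerves, stood at 0.20, 0.52, -0.28 and 0.26 in the controls and at 0.65, 0.14, 0.23 and 0.12 in the mutants. Its difference was 0.12 (interval -0.31 to 0.54), with control replicate 3 lowest and mutant replicate 1 highest. The Uchl1 probe spans chr5:67073886-67074977, longer than the probe itself.

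By the probes chosen, the adhesion molecules followed control replicate 3 only weakly. Ncam1 stood at 2.55, 2.71, 2.41 and 2.52 in the controls and at 2.60, 2.46, 2.34 and 2.50 in the mutants (chr9:49310320-49310379), a difference of -0.07 (SE 0.099, interval -0.30 to 0.15). Ncam1 probes 2 and 3 gave -0.004 (interval -0.29 to 0.28) and -0.34 (interval -0.74 to 0.06). Control replicate 3 lay -0.36 and 0.31 from the other controls on these probes. L1cam, a cell adhesion protein of migrating crest cells and axons, stood at -3.05, -2.84, -3.03 and -2.74 in the controls and at -2.26, -2.57, -2.61 and -2.99 in the mutants (chrX:71100374-71100433). Mutant replicates 1, 2 and 3 were above all 4 controls and mutant replicate 4 was among them. The difference of 0.31 (SE 0.16, interval -0.06 to 0.67, limma adjusted p = 0.821) was the highest of the 29, and it was 0.15 without the 2 arrays.

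The 4 cholinergic genes did not share 1 pattern over the arrays. Slc18a3 encodes the transporter that loads acetylcholine into vesicles, and its gene lies within the first intron of Chat, which encodes the enzyme that makes acetylcholine. Slc18a3 stood at -0.66, -0.60, -1.39 and -0.63 in the controls and at -0.46, -0.78, -0.78 and -1.01 in the mutants, with control replicate 3 lowest and mutant replicate 1 highest. Chat stood at -3.53, -3.58, -3.58 and -3.71 in the controls and at -4.37, -3.23, -3.34 and -3.85 in the mutants. For Chat, control replicate 3 lay 0.03 from the other controls and mutant replicate 1 was the lowest array, unlike Slc18a3. The Chat probe is the one with the GAAA run shown above. Differences were 0.07 (interval -0.39 to 0.52) for Slc18a3 and -0.10 (interval -0.63 to 0.43) for Chat, and without the 2 arrays they were -0.22 and 0.13.

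Slc5a7, the choline transporter of cholinergic nerve endings, had the widest gap of mutant replicate 1. It stood at -1.57, -1.59, -2.47 and -1.68 in the controls and at -3.56, -1.97, -1.83 and -2.01 in the mutants by probe 1. Both arrays that stand apart were low. Among the other 6 arrays the controls were all higher than the mutants, from which nothing is read. The difference of -0.52 was the lowest of the 29 (SE 0.39, interval -1.41 to 0.38, limma adjusted p = 0.821), and it was -0.11 without mutant replicate 1 and -0.32 without both. Probe 2 showed the low value of mutant replicate 1 as well, with a gap of -2.09 against -1.62 for probe 1, but its difference without that array was 0.07. Ache, which encodes the enzyme that breaks acetylcholine down, stood at -2.84, -2.55, -3.00 and -2.76 in the controls and at -2.38, -2.82, -2.66 and -2.99 in the mutants (chr5:137733122-137733181). Its groups overlapped, with a difference of 0.08 (interval -0.27 to 0.43). Ache probe 2 gave a difference of 0.20 (interval -0.11 to 0.51).

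**Figure D3:**
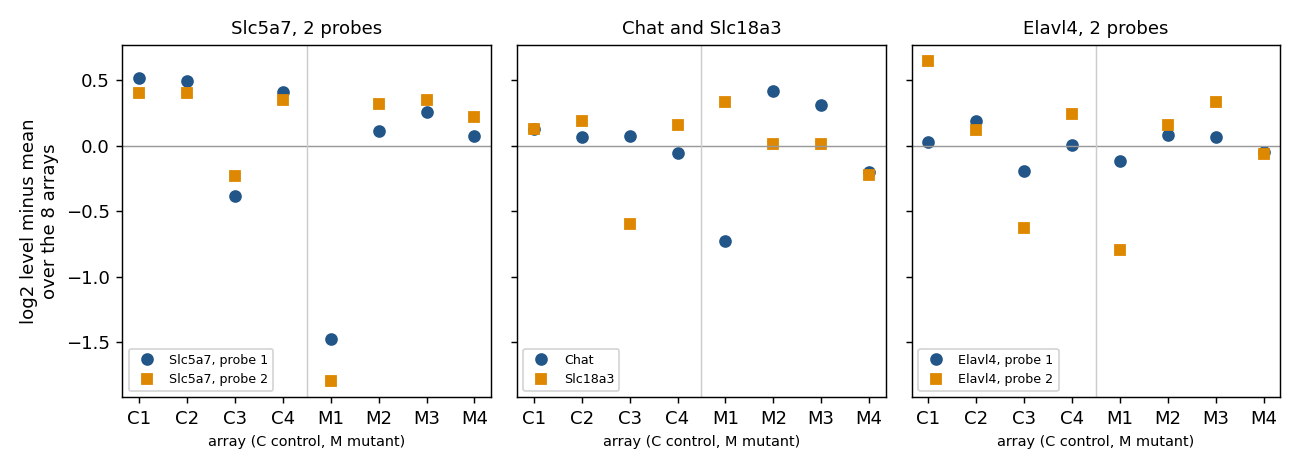
Points show, for each array, the log2 level minus the probe's mean over the 8 arrays, for the 2 probes of Slc5a7, for Chat and Slc18a3, and for the 2 probes of Elavl4. Both Slc5a7 probes are lowest on mutant replicate 1 (M1), whereas Chat and Slc18a3 move in opposite directions on that array.

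Of the enzymes of other transmitters, Nos1, the neuronal nitric oxide synthase of inhibitory motor neurons, was near the detection limit. Its probe was well above background on 3 of 4 arrays in each group, with levels of -5.02, -5.18, -5.75 and -4.73 in the controls and -4.82, -5.36, -4.97 and -6.08 in the mutants (chr5:118402831-118402890). The difference of -0.14 had an interval of -0.83 to 0.55. Th, which makes the precursor of dopamine and noradrenaline and is transient in many enteric precursors, stood at -1.19, -1.48, -1.24 and -1.30 in the controls and at -1.17, -1.52, -1.37 and -1.44 in the mutants (chr7:150078703-150078762). Its control replicate 3 lay 0.08 above the mean of the other controls, and its difference was -0.07 (interval -0.32 to 0.17). Dbh stood at -2.86, -2.41, -3.40 and -2.73 in the controls and at -2.90, -3.20, -3.16 and -3.43 in the mutants (chr2:27038665-27038724 on mm9). Control replicates 1, 2 and 4 were above all 4 mutants and control replicate 3 was among them. The difference for Dbh was -0.32 (SE 0.21, interval -0.79 to 0.16), and -0.59 without the 2 arrays (SE 0.14, limma adjusted p = 0.470).

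Among the glial genes, Fabp7, a fatty acid binding protein of immature glia, stood at 0.51, 0.62, 0.26 and 0.58 in the controls and at -0.59, 0.20, 0.19 and 0.26 in the mutants (chr10:57508039-57508098). Mutant replicate 1 was far below the rest, control replicate 3 lay at the level of mutant replicate 4, and the other 3 controls were above all mutants. The difference was -0.48 (SE 0.20, interval -0.92 to -0.03, limma adjusted p = 0.821), and mutants were lower in every one of the 20 alternatives tried, from -0.56 to -0.27. S100b, a calcium-binding protein of enteric glia, stood at -0.30, -0.16, -0.47 and -0.29 in the controls and at -0.10, -0.48, -0.66 and -0.49 in the mutants (chr10:75723783-75723842). Its highest array was mutant replicate 1 and the other 3 mutants were lower than all controls, with a difference of -0.13 (interval -0.43 to 0.18). Gfap, the glial filament, was well above background on 2 of 4 arrays in each group and ran from -7.08 to -5.48 in the controls and from -7.82 to -4.87 in the mutants (chr11:102748864-102748923). With a standard error of 0.653, its difference of -0.12 leaves an interval of -1.60 to 1.37, the least certain of all members.

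Other genes of the same cells, written down as lists with earlier results of these data known, gave no gene past the limma threshold either. At an unadjusted p under 0.05, 0 of the enteric neuron genes, 1 of the glial genes and 0 of the crest signal genes passed, against 5.33% of all genes. Of 27 further enteric neuron genes tested (31 listed), 15 were higher and 12 lower in the mutants, with a median difference of 0.036. Elavl2, a Hu protein like Elavl3 and Elavl4, had a difference of -0.58 (SE 0.51), and Tlx2, a homeobox factor of enteric neurons, had -0.10 (SE 0.17). Control replicate 3 was the lowest control for 25 of the 27, with a median gap of -0.45. Of 10 further genes of glia and Schwann cells tested (13 listed), 6 were higher and 4 lower, with a median of 0.032. Erbb3, the neuregulin receptor, had a difference of 0.25 (SE 0.16), and the factors Sox8 and Foxd3 had 0.10 (SE 0.30) and 0.08 (SE 0.24).

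Gfra3, the co-receptor for artemin, was the 1 gene of the 10 tested in that glial list whose groups did not overlap, against 4.66% of all genes. The groups overlapped for every gene tested in the neuron and crest signal lists. Gfra3 is singled out here after its values were seen. It stood at -0.94, -0.62, -0.88 and -0.92 in the controls and at -1.55, -1.62, -1.79 and -1.59 in the mutants. All 4 mutants were below all 4 controls, and neither control replicate 3 nor mutant replicate 1 lay apart from its group. The difference was -0.80 (SE 0.11), with a limma adjusted p of 0.0620, which misses the threshold. Which cells of the whole small intestine gave this signal was not tested. Of 16 genes of crest signals and receptors tested (17 listed), 8 were higher and 8 lower, with a median of -0.042. The ligands Gdnf and Nrtn, which act through Ret, had differences of 0.01 (SE 0.17) and -0.08 (SE 0.13), Artn 0.04 (SE 0.14), and the co-receptor Gfra2 0.12 (SE 0.16).

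The array on which the members were low was also low for the muscle coat. For control replicate 3 the median gap to the other controls was -0.59 over 10 smooth muscle genes, for which it was the lowest control in 10 of 10, and the log2 of their summed level was 7.99 on that array and 8.47 to 8.58 on the other controls. It was -0.41 over 5 genes of the interstitial cells of Cajal, the pacemakers that lie beside the enteric ganglia, and -0.37 over 6 fibroblast genes. The gap was 0.080 over 10 epithelial genes, 0.075 over 6 endothelial genes and 0.78 over 5 erythroid genes. Summed erythroid level was 8.43 (log2) on control replicate 3, the highest of the 8 arrays, where it ran from 7.32 to 8.43 in the controls and from 7.34 to 8.07 in the mutants. The part of these cell types in the members' values was not tested. Between the groups, smooth muscle genes had a median difference of 0.20, with 9 of 10 higher and none past the threshold. Mutant replicate 1 was high for these genes, with a median gap of 0.36 to the other mutants, while control replicate 3 was low. Nothing is therefore read from their signs, as for the members. Pancreatic acinar genes, of a neighbouring organ, had a median difference of 1.30 over the 5 tested (8 listed). All 5 were higher in the mutants and none was past the threshold. Cela2a met the filter with the minimum of 4 arrays, at -8.26 to -7.50 in the controls and -5.11 to -2.12 in the mutants. The filter thus favoured Cela2a through the mutants, and the direction of this gene is not read as support. Summed levels of the list were -0.08 to 1.13 in the controls and 1.48 to 3.80 in the mutants. These sums and the median include Cela2a, and neither was computed without it.

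**Figure D4:**
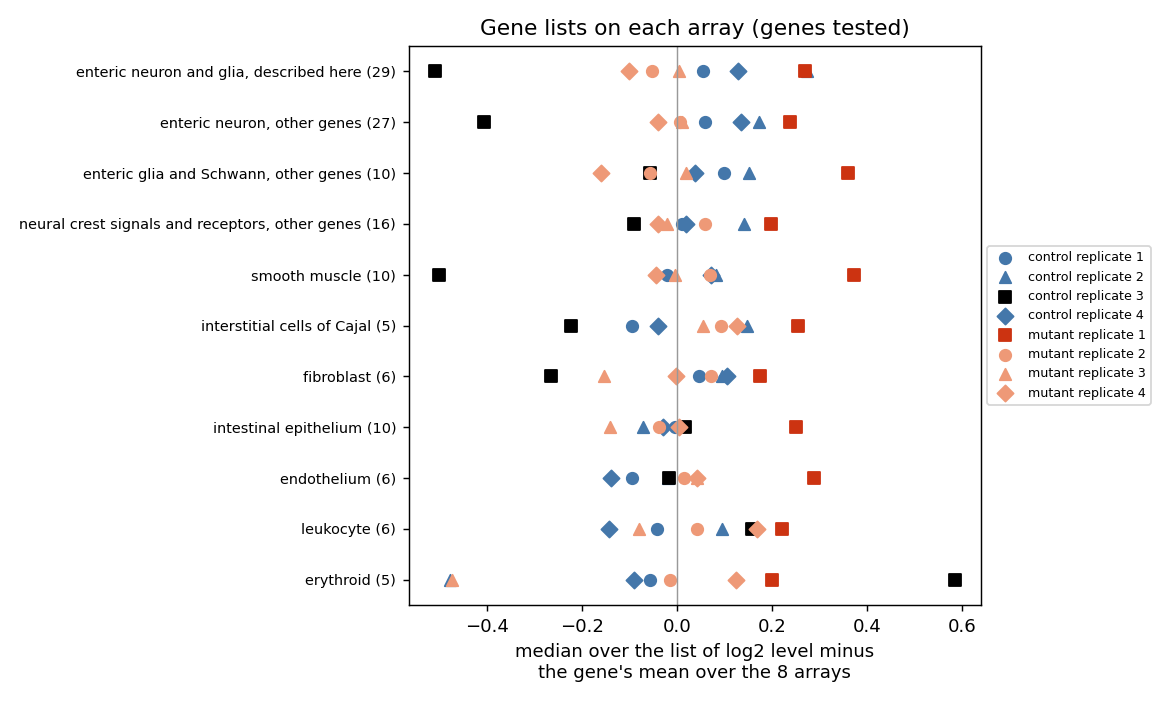
For each gene list (number of genes tested in brackets) and each array, the point is the median over the list of the log2 level minus the gene's mean over the 8 arrays. Control replicate 3 (black squares) is lowest for the enteric neuron lists and smooth muscle, near the other controls for epithelium and endothelium, and highest for erythroid genes.

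Marker genes of other nervous or neuroendocrine tissue were mostly not measurable. Of 6 genes of central neurons and their precursors, 1 was tested, and of 6 genes of sensory neurons, 2 were tested. All 5 adrenal genes were tested, with a log2 summed level of -0.70 to -0.45 in the controls and -0.76 to -0.16 in the mutants. Such a sum adds probes of different brightness and serves only to compare arrays within a list. Th, Dbh and the neurofilaments are not particular to the gut, since sympathetic neurons and chromaffin cells make them too.

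The slide had 2 rows, each with 2 controls and 2 mutants. Within row 1, which holds mutant replicate 1, the median difference of the members was -0.058, with 12 higher and 17 lower, against a median of 0.074 over all genes. Within row 2, which holds control replicate 3, the members' median was 0.069, with 19 higher and 10 lower, against 0.0037 over all genes.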

How the data were processed

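With Agilent Feature Extraction 10.10.1.1, per the file headers, the authors extracted and deposited linear spot intensity values, background-corrected within each array and annotated on mm9. TRI-reagent was used for extraction, and 100 ng of RNA per sample entered a single-dye amplification, per the labels' protocols. The authors also deposited a table of intensity values whose processing is not given in the sources used here. Its ranks correlated with each array's median pixel intensity at 0.99997 to 0.99998, and it served as an alternative. All arrays lay on 1 slide, read in 1 scan. For mutant replicates 2, 3 and 4 the description field names a different Rfx gene than the title, and the title was followed.

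Values are log2 processed intensity minus each array's 75th percentile over 59305 non-control spots. Outlier spots were left out (117 to 157 per array), spots of a probe were averaged, and a probe was tested when well above background (at least 50% of its spots) on at least 4 of the 8 arrays. No non-control spot was saturated, and arrays shared at most 1 identical spot value. Controls and mutants were compared in R 4.3.3 by limma 3.58.1, two-sided, with Benjamini-Hochberg adjustment over 25360 genes and a threshold of 0.05, after the fit had been tested on simulated data. Depth has no counterpart here, and the number of arrays limits the precision. Gene names are those of the array files, and probe positions were not set against exons or UTRs. The members, all of which are named, and the other lists, of which the first measured genes are named (some are not reported here), were chosen with earlier results of these data known.

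The alternatives were normexp background correction (offset 50), quantile or median scaling, filters of all 8 arrays or none, the mean of a gene's probes, the authors' deposited table, slide row or replicate number as a block, array weights, an intensity trend in the variance prior, and leaving out each array. Replicate numbers do not pair the samples: deviations of same-numbered arrays from their group means correlated at -0.0928, 0.0571, -0.0694 and 0.0903 for replicates 1 to 4.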

Additional observations from a re-analysis of the deposited data

Results flagged for a closer look

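In groups of 4 arrays, a level was singled out when its gap to the nearest other array, divided by the range of the group, exceeded Dixon's critical value at 95%. This held in 12 of 58 groups of a member and a genotype, where chance gives about 2.9. The flags are not independent, since all members were read on the same 8 arrays. The share of groups flagged over all genes was not computed, so the excess is not read as particular to the members. All 12 were control replicate 3 (4, each low) or mutant replicate 1 (8, of which 4 high and 4 low).

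Control replicate 3 was low for Slc18a3 at -1.39 (other controls -0.66 to -0.60), Slc5a7 at -2.47 (-1.68 to -1.57), Gfap at -7.08 (-5.74 to -5.48) and Dcx at -3.61 (-2.86 to -2.71). Its erythroid genes were high and its smooth muscle genes low on the same array, and their part in these values was not tested.

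Mutant replicate 1 was high for Tubb3 at 0.92 (other mutants 0.33 to 0.39), Stmn3 at 1.25 (0.75 to 0.78), Nefl at -0.45 (-0.93 to -0.87) and Nefm at -2.14 (-2.71 to -2.66). It was low for Ednrb at 1.20 (1.52 to 1.58), Slc5a7 at -3.56 (-2.01 to -1.83), Fabp7 at -0.59 (0.19 to 0.26) and Dcx at -3.72 (-2.97 to -2.93). By Ednrb probe 2 it was not low, at 1.08 (1.01 to 1.32). Mutant replicate 1 had the lowest correlation with the others over all genes. It was the highest array for 45.6% of all genes and the lowest for 21.3%, and what sets it apart was not tested.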

How the results depend on the processing

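No member passed in any of 20 alternatives (lowest adjusted p 0.309, Fabp7, array weights), and the members' median stayed between -0.22 and 0.047. The 15 genes called became 27 with normexp, 42 with array weights, 23 without control replicate 3 and mutant replicate 1, and 10 to 22 when 1 array was left out. With the replicate block 7 genes and 0 members passed. Of 578 member values 508 kept their direction and 70 changed it, none past the threshold. 10 members never changed direction: Elavl3, Ret, S100b, Gfra1, Th, Dbh, Slc5a7, Fabp7, Ncam1 and L1cam. The cause of the reversals was not tested.

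Values with the other sign were Chat 0.022 and Gfap 0.11 with normexp, Elavl4 0.0019 with median scaling, Ednrb 0.042 with the mean of its probes, and Elavl4 0.015, Phox2a -0.0066 and Gfap 0.094 in the deposited table. With array weights they were Elavl4 0.012, Phox2a -0.21, Tubb3 -0.12, Prph -0.073, Stmn2 -0.091, Stmn3 -0.11, Chat 0.22, Uchl1 -0.069, Gap43 -0.013, Ednrb 0.029, Slc18a3 -0.064, Ache -0.054, Nefl -0.23 and Gfap 0.37. Without both arrays they were Phox2a -0.30, Tubb3 -0.21, Prph -0.16, Stmn2 -0.24, Stmn3 -0.23, Chat 0.13, Sox10 -0.077, Uchl1 -0.16, Gap43 -0.12, Ednrb 0.049, Slc18a3 -0.22, Ache -0.11 and Nefl -0.35, while Nos1 and Nefm, lower with all arrays too, stood at -0.49 and -0.43. Leaving out 1 array gave ranges across 0 for Hand2 (-0.22 to 0.062), Gfap (-0.52 to 0.46), Elavl4 (-0.081 to 0.047), Ednrb (-0.060 to 0.064), Nefm (-0.29 to 0.013), Phox2a (-0.15 to 0.18), Tubb3 (-0.065 to 0.23), Prph (-0.065 to 0.24), Stmn2 (-0.12 to 0.16), Stmn3 (-0.10 to 0.22), Uchl1 (-0.036 to 0.23), Gap43 (-0.054 to 0.22), Slc18a3 (-0.12 to 0.15), Nefl (-0.24 to 0.18), Nos1 (-0.33 to 0.12), Chat (-0.25 to 0.13), Sox10 (-0.021 to 0.24), Ache (-0.036 to 0.17) and Dcx (-0.34 to 0.058). Gfap and Nos1, near background, drop out when all 8 arrays must detect a probe.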
